A study of Homo sapiens with 29 samples.

Results

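The human mitochondrial genome encodes 37 genes, found here as all genes whose symbol starts with MT- in GENCODE release 29 on GRCh38. They are 13 protein-coding genes, 22 tRNA genes and 2 rRNA genes. The deposited table held a column for each of the 13 protein-coding genes, with 1 transcript apiece, and for none of the 22 tRNA genes and neither of the rRNA genes MT-RNR1 (12S) and MT-RNR2 (16S). The measured members were therefore 13 of 35579 genes with a matched transcript. Together they took between 11.4% and 17.4% of all transcript signal in a library, given as TPM, a level per transcript length that sums to the same total in every library.

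The 13 mitochondrial (MT) proteins are core subunits of the oxidative phosphorylation machinery in the inner mitochondrial membrane. Complexes I, III and IV pass electrons to oxygen and pump protons, and complex V uses the gradient to make ATP. All other subunits of these complexes, and every protein that copies, transcribes, processes and translates the mitochondrial genome, are encoded in the nucleus and imported. Both strands of the small circular genome are transcribed as long precursors, from which tRNAs are cut out to release the mRNAs, so the level of each mRNA also depends on its processing and stability.

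RNA, labelled as poly(A) RNA, came from PC9, a lung adenocarcinoma cell line driven by mutant EGFR, in 10 versions called lines here. PAR was the parental line with its endogenous AXL receptor and KO a CRISPR/Cas9 knockout of AXL. The remaining lines were made by putting a receptor back into KO cells, either wild-type (WT), without kinase activity (KD) or with phenylalanine in place of a tyrosine (Y634F, Y643F, Y698F, Y726F, Y750F and Y821F). Each line was left untreated, given 1 μM of the EGFR inhibitor erlotinib (E), or given erlotinib together with the AXL-activating antibody AF154 at 300 ng/mL (EA), for 24 h. There were 10 untreated, 10 E and 9 EA libraries, 1 per line and treatment, with no EA library of KO among them. The transduced lines were pools sorted for GFP that still held knockout cells. The paper's supplement reports that only a minority of their cells expressed AXL. Since each line gave 1 dish per treatment, the lines served as the replicates, and p-values measure the spread between lines derived from the same cell line. The AXL transcript was still present in KO, at 79.3 to 92.4 TPM, below the 217 to 852 TPM of all other lines. All 6 epithelial markers (EPCAM, KRT8, KRT18, KRT19, CDH1, CLDN4) were present, the leukocyte marker PTPRC stayed at or under 1.003 TPM, the fibroblast collagen COL3A1 at or under 0.062 TPM and the endothelial marker PECAM1 at or under 9.60 TPM. The collagen COL1A1 lay between 15.3 and 70.9 TPM and moved with treatment, from 25.0 ± 5.46 TPM untreated to 51.5 ± 7.39 TPM with E, a log2 change of 1.03 ± 0.07 (adjusted p = 4.26e-09 in the limma fit used for the members) and higher in 10 of 10 lines. Its part in the results was not tested. TPM keeps no record of read number, so the depth behind a value is unknown.

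Several MT mRNAs end inside their stop codon, which the poly(A) tail completes to UAA, and their reference ends are shown because only tailed RNA was the labelled input. In the GENCODE 29 transcripts, 6 of the 13 ended in this way, and the capitals mark the encoded part of the stop codon at the end of each mRNA (21 bases, chrM, plus strand).

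MT-ND1 (chrM:4242-4262): cagcattccccctcaaaccTA

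MT-ND2 (chrM:5491-5511): cttttatactaataatcttaT

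MT-CO3 (chrM:9970-9990): ccatctattgatgagggtctT

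MT-ND3 (chrM:10384-10404): aaggattagactgaaccgaaT

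MT-ND4 (chrM:12117-12137): tcattaccgggttttcctctT

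MT-CYB (chrM:15867-15887): acaaaatactcaaatgggccT

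Some neighbouring reading frames share bases, and these junctions are shown because reads across them belong to both genes. Each column is a reading frame and is called an mRNA here, although frames that overlap can lie on 1 RNA. Capitals mark the shared bases, which number 46 between MT-ATP8 and MT-ATP6, 7 between MT-ND4L and MT-ND4, and 1 between MT-ATP6 and MT-CO3. MT-ATP8 and MT-ATP6 shared 16 sequences of 31 bases, the word length over which sharing was counted, and how the authors' quantification divided such reads is not known.

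MT-ATP8/MT-ATP6 (chrM:8512-8587): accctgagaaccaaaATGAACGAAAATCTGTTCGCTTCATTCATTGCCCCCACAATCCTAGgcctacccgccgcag

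MT-ND4L/MT-ND4 (chrM:10745-10781): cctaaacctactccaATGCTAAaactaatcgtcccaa

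MT-ATP6/MT-CO3 (chrM:9192-9222): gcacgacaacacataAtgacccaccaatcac

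Complex I, which takes electrons from NADH, had 7 of the 13 members. They were MT-ND1 (ENSG00000198888, chrM:3307-4262), MT-ND2 (ENSG00000198763, chrM:4470-5511), MT-ND3 (ENSG00000198840, chrM:10059-10404), MT-ND4L (ENSG00000212907, chrM:10470-10766), MT-ND4 (ENSG00000198886, chrM:10760-12137), MT-ND5 (ENSG00000198786, chrM:12337-14148) and MT-ND6 (ENSG00000198695, chrM:14149-14673). Complex III had MT-CYB (ENSG00000198727, chrM:14747-15887), the cytochrome b subunit. Complex IV had its 3 core subunits MT-CO1 (ENSG00000198804, chrM:5904-7445), MT-CO2 (ENSG00000198712, chrM:7586-8269) and MT-CO3 (ENSG00000198938, chrM:9207-9990). Complex V had MT-ATP8 (ENSG00000228253, chrM:8366-8572) and MT-ATP6 (ENSG00000198899, chrM:8527-9207). Each is a single exon, and only MT-ND6 is annotated on the minus strand. Whether the counting used strand is not given in the sources used here, so MT-ND6 reads cannot be told apart from antisense reads of the opposite strand.

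On the TPM scale, MT-ND4L was the most abundant gene of the whole table by its mean over the libraries, MT-CO2 the second, MT-ND3 the third and MT-CO1 the fifth. All 13 lay among the 30 most abundant genes. In untreated cells MT-ND4L stood at 31839 ± 3565 TPM (SD, n = 10 lines), MT-ND3 at 18448 ± 2478 TPM, MT-CO2 at 16752 ± 2119 TPM and MT-CO1 at 12448 ± 1314 TPM. The lowest was MT-ND5, at 2730 ± 435 TPM, although its transcript is the longest of the 13 at 1812 bases. MT-ND4L, MT-ND3 and MT-ATP8 are the shortest, at 297, 346 and 207 bases, lengths at which a level per length depends strongly on the fragment length assumed. In untreated cells, MT-ND4L over MT-ND4 was a ratio of 3.77 ± 0.19 and MT-ATP8 over MT-ATP6 one of 0.55 ± 0.04. The frames of both pairs overlap, so these ratios need not be differences between separate RNAs.

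The order of the untreated levels was firm at the top and loose at the bottom. MT-ND4L exceeded MT-ND3 in 10 of 10 lines, and MT-CO2, MT-CO1, MT-CO3, MT-ND4, MT-ATP6 and MT-CYB followed in an order that held in 10 of 10 lines for each of these neighbours, while MT-ND3 exceeded MT-CO2 in 8 of 10. MT-CYB (5000 ± 528 TPM) and MT-ND2 (4991 ± 385 TPM) did not differ beyond their spread, with MT-CYB higher in 4 of 10 lines. MT-ND6 (4057 ± 729 TPM), MT-ATP8 (3845 ± 430 TPM) and MT-ND1 (3746 ± 381 TPM) were not separated either, with MT-ND6 above MT-ATP8 in 6 and MT-ATP8 above MT-ND1 in 5 of 10 lines. With EA, MT-CO2 (21437 ± 3777 TPM, n = 9 lines) had the higher mean than MT-ND3 (17981 ± 3201 TPM), and was above it in 6 of 9 lines.

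**Figure D1:**
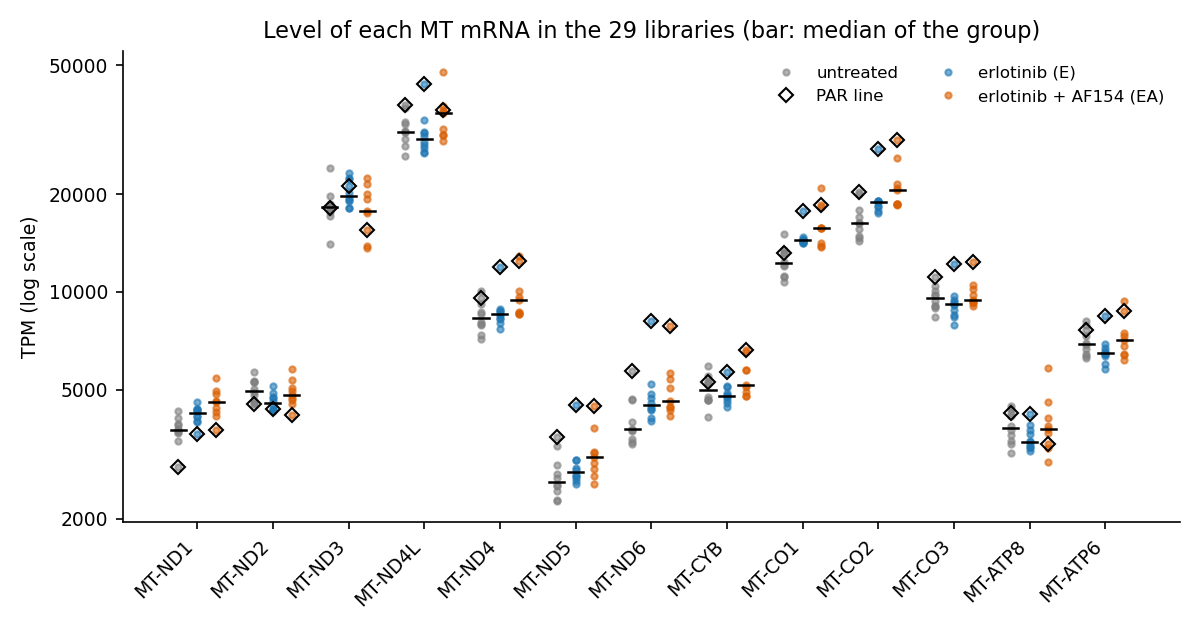
TPM on a log axis of each of the 13 MT mRNAs, with a point per library coloured by treatment, a bar at the median of each group and a diamond around the parental line (PAR). MT-ND4L lies between 26221 and 47611 TPM and MT-ND5 between 2272 and 4468 TPM. In all 3 treatments the PAR diamonds lie at the top of MT-CO2, MT-CO3, MT-ND5 and MT-ND6 and at the bottom of MT-ND1.

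The MT mRNAs took 12.9% ± 0.97 of TPM in untreated cells (SD, n = 10 lines), 13.5% ± 1.48 with E (n = 10) and 14.5% ± 1.497 with EA (n = 9). The untreated values ran from 11.4% in Y634F through a median of 12.8% to 14.4% in PAR. With E they ran from 12.3% in Y634F through 13.2% to 17.4% in PAR, and with EA from 12.9% in Y698F through 14.3% to 17.4% in Y821F. The 3 treatments overlapped, and the range within each treatment exceeded the differences between the treatment means. No p is given for this share, since it is a sum over the members.

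Within lines, E was higher than untreated in 7 of 10 lines, by 0.62 ± 1.12 percentage points (mean ± SD of the differences), from -1.21 in WT to 2.99 in PAR. Without PAR the mean difference was 0.35. EA was higher than E in 6 of the 8 lines with a receptor able to signal (all but KO and KD), by 0.85 ± 1.74 percentage points, from -0.998 in PAR to 4.50 in Y821F. Without Y821F this difference was 0.32. KD, whose receptor lacks kinase activity, was 1.24 percentage points higher with EA than with E. EA exceeded untreated in 6 of 8 lines, by 1.45 ± 1.71 percentage points, and in KD by 2.67. All 3 mean differences were smaller than their SD between lines.

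**Figure D2:**
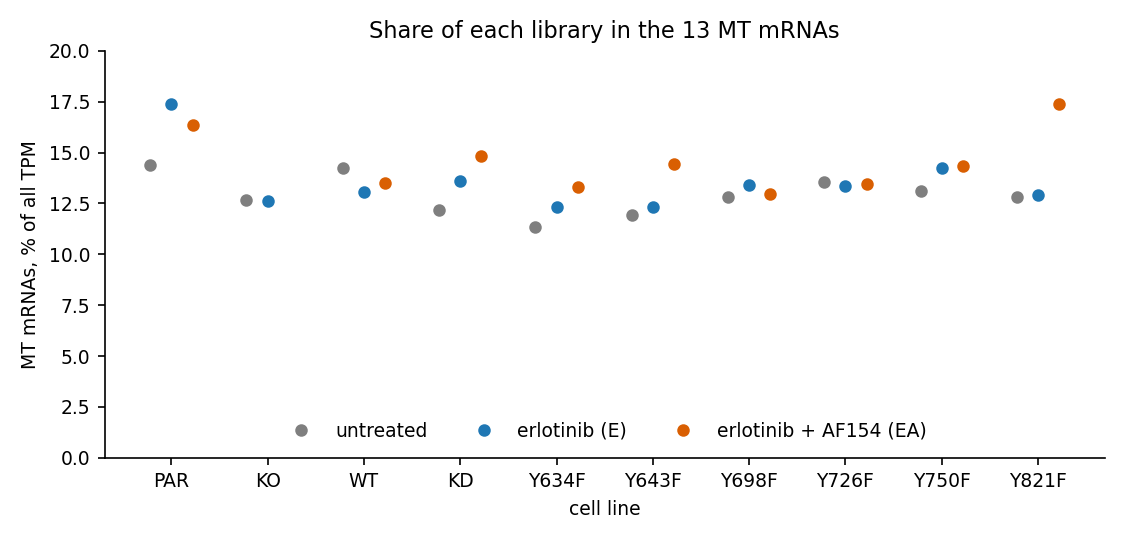
Percent of all TPM taken by the 13 MT mRNAs (vertical axis) in each of the 10 cell lines (horizontal axis), with a point per library coloured by treatment. PAR with E (17.4%), PAR with EA (16.4%) and Y821F with EA (17.4%) lie above the other libraries, which run from 11.4% to 14.8%.

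Erlotinib was compared with no treatment, which addresses what EGFR inhibition does to these mRNAs, by limma on log2(TPM + 1) in a model that pairs the libraries of a line, with p-values adjusted over 9085 genes (Benjamini-Hochberg). Of the 13 members, 8 passed an adjusted p of 0.05, 6 of them higher and 2 lower, against 79.0% of all genes tested, 36.4% higher and 42.6% lower. The 8 are 61.5% of the members, a smaller share than among all genes. The median log2 change was 0.05 over the members and -0.04 over all genes tested. With library medians centred, 6 members were higher and 0 lower. No member's E and untreated ranges were separate, and the share of all genes tested with separate ranges was not counted.

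The complex IV mRNAs split. MT-CO1 ran from 10770 TPM in Y750F through a median of 12254 to 15079 in WT untreated, and from 14107 in KD through 14476 to 17782 in PAR with E. It rose by 0.25 ± 0.04 on the log2 scale (SE, adjusted p = 0.000125), in 9 of 10 lines. MT-CO2 ran from 14327 TPM through 16335 to 20335 untreated and from 17475 through 18924 to 27640 with E, and rose by 0.22 ± 0.04 (adjusted p = 0.000379), in 9 of 10 lines. WT was the line in which both were lower with E. MT-CO3, whose product is the third core subunit, did not pass, with a log2 change of -0.05 ± 0.03 (adjusted p = 0.142) and 4 of 10 lines higher.

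In complex I, 4 of 7 mRNAs rose and 1 fell. MT-ND6 ran from 3398 TPM through a median of 3767 to 5697 untreated and from 4008 through 4486 to 8156 with E. It was higher with E in 10 of 10 lines, by 0.25 ± 0.04 on the log2 scale (adjusted p = 2.36e-05), the smallest adjusted p of the members. As the strand of reads is not given, the MT-ND6 column may hold reads of the opposite strand. Whether its RNA carried a poly(A) tail was not measured. MT-ND1 ran from 2882 TPM through 3761 to 4290 untreated and from 3652 through 4222 to 4593 with E, and also rose in 10 of 10 lines, by 0.16 ± 0.03 (adjusted p = 0.000451). The extremes of MT-ND6 were high in PAR and those of MT-ND1 low in PAR, under both treatments. MT-ND3 rose by 0.15 ± 0.05 (adjusted p = 0.00892), in 7 of 10 lines, and MT-ND5 by 0.11 ± 0.04 (adjusted p = 0.0227), in 8 of 10. Without PAR the change of MT-ND5 was 0.08 and without Y750F 0.09, and it then missed the threshold.

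MT-ND2, a membrane subunit of the proton-pumping arm like MT-ND4 and MT-ND5, moved the other way. It ran from 4523 TPM through 4963 to 5663 untreated and from 4284 through 4560 to 5137 with E, and was lower with E in 10 of 10 lines, by -0.12 ± 0.03 on the log2 scale (adjusted p = 0.00346). MT-ATP8, a small subunit of complex V, was lower in 9 of 10 lines, by -0.11 ± 0.04 (adjusted p = 0.0120), and its partner MT-ATP6, part of the proton channel, missed the threshold at -0.09 ± 0.04 (adjusted p = 0.0523). MT-ATP6 passed it without PAR, where its change was -0.12, and MT-CO3 did so too, at -0.08. MT-ATP6 also passed without KD or Y634F, at -0.11 in each case. MT-ND2 and MT-ATP8 lost the threshold with library medians centred, where their changes were -0.07 and -0.06. MT-ND4L, MT-ND4 and MT-CYB had changes between -0.05 and 0.05 that did not pass.

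**Figure D3:**
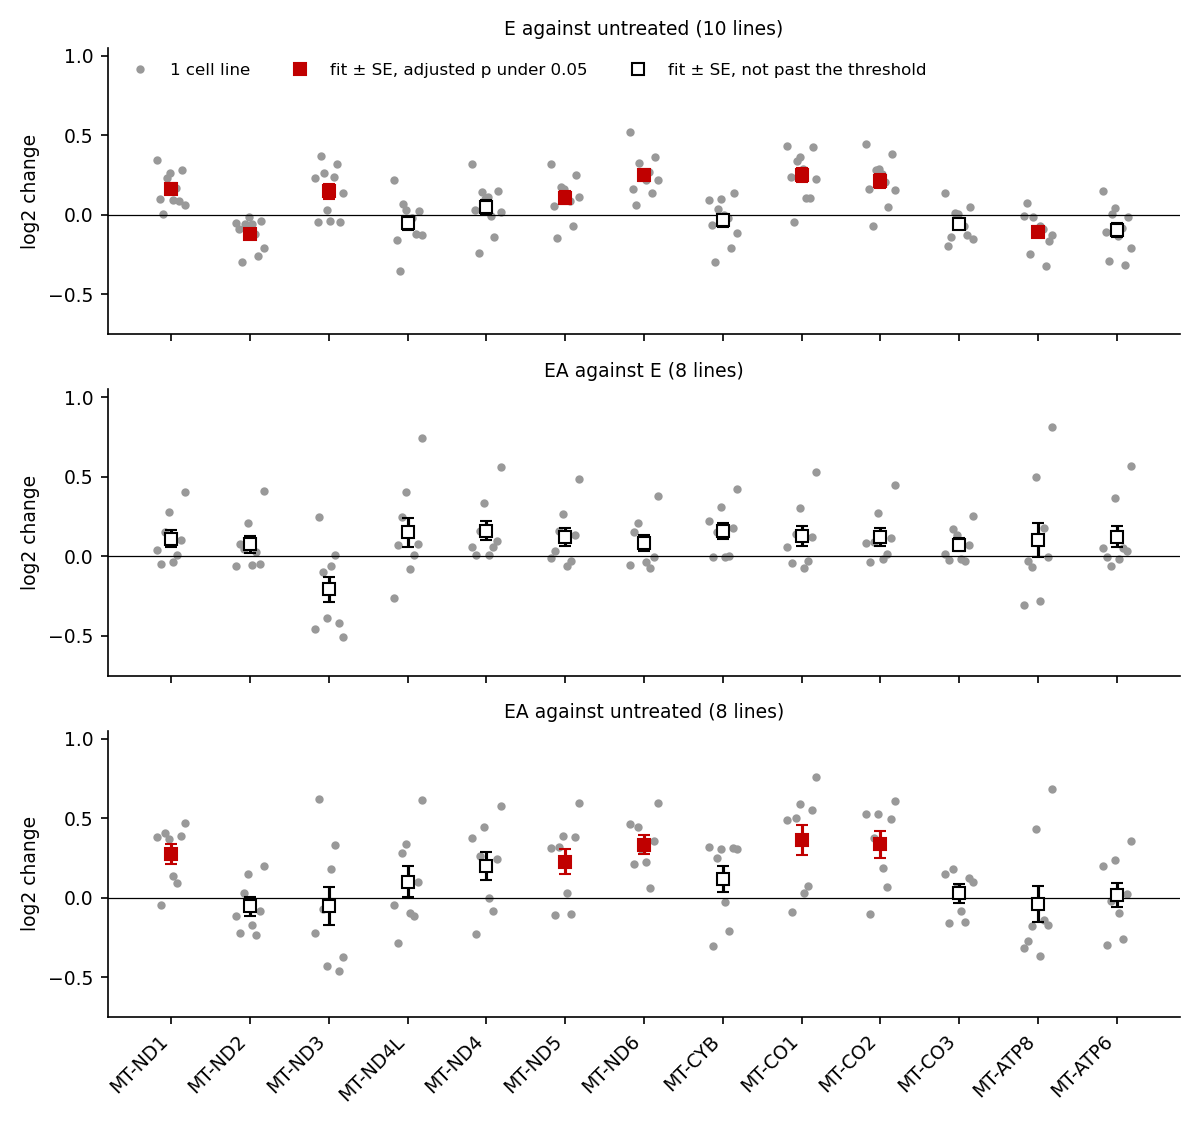
Log2 change of each MT mRNA in 3 comparisons (panels), with a grey point per cell line and a square at the limma estimate with its SE, filled where the adjusted p is under 0.05. With E against untreated 8 squares are filled, with EA against E 0, and with EA against untreated 5, and the panels share libraries.

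AF154 was added to erlotinib to ask what activation of AXL changes while EGFR is inhibited. In the 8 competent lines, 0 of 13 members passed the threshold in limma, against 2.36% of all genes tested, 1.88% higher and 0.473% lower. All of these lines but PAR were pools in which only a minority of cells expressed AXL. An unadjusted p under 0.05 was found for 5 of 13 members and for 20.9% of all genes tested. Leaving out a line moved the share of all genes past the threshold to between 0.11% (without Y634F) and 2.07% (without Y726F), by over 1.5 times for every line but Y726F. Among the members, 12 of 13 estimates lay above 0, with a median log2 change of 0.12 against 0.02 over all genes tested. The share of all genes tested with an estimate above 0 was not counted. By line, the median over the members ran from -0.04 in Y698F to 0.45 in Y821F. KD, whose receptor lacks kinase activity, also had 12 of 13 members higher, with a median of 0.12. MT-CYB had the lowest adjusted p, 0.111, with a change of 0.16 ± 0.05, and MT-ND4 was higher in 8 of 8 lines, by 0.16 ± 0.06 (adjusted p = 0.158). None of these differences stood out from the spread between lines after adjustment.

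MT-ND3 was the member with an estimate below 0. It ran from 18089 TPM in Y643F to 23313 in Y750F with E and from 13664 in Y821F to 22536 in Y726F with EA, and its log2 change was -0.21 ± 0.08 (adjusted p = 0.167), with 2 of 8 lines higher. The largest differences were in Y821F (from 19444 to 13664 TPM), PAR (from 21275 to 15516), Y750F and Y643F (from 18089 to 13844). MT-ND4L, the next mRNA gene on the same strand, was higher in 6 of 8 lines and in Y821F went from 28403 to 47611 TPM. MT-ND3 over MT-ND4L was a ratio of 0.59 ± 0.11 untreated and 0.67 ± 0.07 with E (n = 10 lines each) and 0.53 ± 0.15 with EA (n = 9). It was higher with EA than with E in 3 of 8 lines and went from 0.68 to 0.29 in Y821F, and the untreated WT library was also low, at 0.38. The pair sets the member with an estimate below 0 against one above 0, so the ratio with EA restates those changes. Both transcripts are short, where a level depends strongly on the fragment length assumed.

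EA was also compared with untreated in the same 8 lines, which share libraries with the other comparisons. Here 5 of 13 members passed, all 5 higher, against 70.6% of all genes tested, 33.1% higher and 37.6% lower. MT-CO1 rose by 0.36 ± 0.10 on the log2 scale (adjusted p = 0.00513), MT-CO2 by 0.34 ± 0.09 (adjusted p = 0.00393) and MT-ND6 by 0.33 ± 0.06 (adjusted p = 0.000357), with 7, 7 and 8 of 8 lines higher. MT-ND1 rose by 0.27 ± 0.06 (adjusted p = 0.00223), in 7 of 8 lines, and MT-ND5 by 0.23 ± 0.08 (adjusted p = 0.0225), in 6 of 8. These members also had positive changes with E alone. The rise of MT-ND5 fell short of the threshold without any of Y634F, Y643F, Y750F or Y821F, with changes between 0.17 and 0.21. MT-ND4 was at 0.20 ± 0.09 (adjusted p = 0.0602) and passed without WT, at 0.26, or without Y726F, at 0.24. It also passed with KD added (0.21), with all libraries in 1 fit (0.21), with library medians centred (0.23) and with scaling to protein-coding nuclear genes (0.22). Without WT, MT-CYB passed as well, at 0.18. The 8 members that did not pass included all of complex V and MT-ND2.

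Within the MT mRNA sum, complex IV made up 30.1% ± 1.44 in untreated cells, 32.2% ± 0.99 with E and 32.8% ± 1.80 with EA. Its share was higher with E in 10 of 10 lines, by 2.13 ± 0.99 percentage points, through MT-CO1 (9.65% to 10.95%) and MT-CO2 (12.96% to 14.4%), while MT-CO3 went from 7.44% to 6.85% and was lower in 10 of 10. Complex V made up 8.45% ± 0.40 untreated and 7.54% ± 0.23 with E, and was lower in 10 of 10 lines. Complex I held the largest part, 57.6% ± 1.66 untreated, 56.7% ± 1.06 with E and 55.7% ± 2.04 with EA. Untreated, its short members MT-ND4L and MT-ND3 held 24.6% and 14.4% of the sum. Their levels, and so this part, depend strongly on the fragment length assumed. Complex III made up 3.87% ± 0.22 untreated, 3.62% ± 0.16 with E and 3.78% ± 0.22 with EA. The shares are parts of a sum, so a rise in some members lowers the others, and they are given with no test.

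Lines differed in ways that the treatment did not explain. PAR had the highest value of 5 members untreated, of 10 with E and of 5 with EA, and the lowest MT-ND1 in all 3 treatments. MT-ND6 in PAR stood at 5697, 8156 and 7862 TPM untreated, with E and with EA, against 3398 to 4660, 4008 to 5206 and 4152 to 5626 TPM in the other lines. MT-ND1 in PAR stood at 2882, 3652 and 3756 TPM, against 3460 to 4290, 3970 to 4593 and 4152 to 5433 TPM. Both genes thus separated PAR from every knockout-derived line under every treatment, in opposite directions. MT-CO2, MT-CO3 and MT-ND5 were likewise highest in PAR under every treatment, and MT-ND2 was lowest there untreated and with EA. The ratio of MT-ND1 to MT-ND5, a pair picked after the values were seen, was 0.81, 0.82 and 0.85 in PAR and between 1.27 and 1.71 in the other 26 libraries. With 1 parental line, parental origin and line cannot be told apart, and no test was made.

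**Figure D4:**
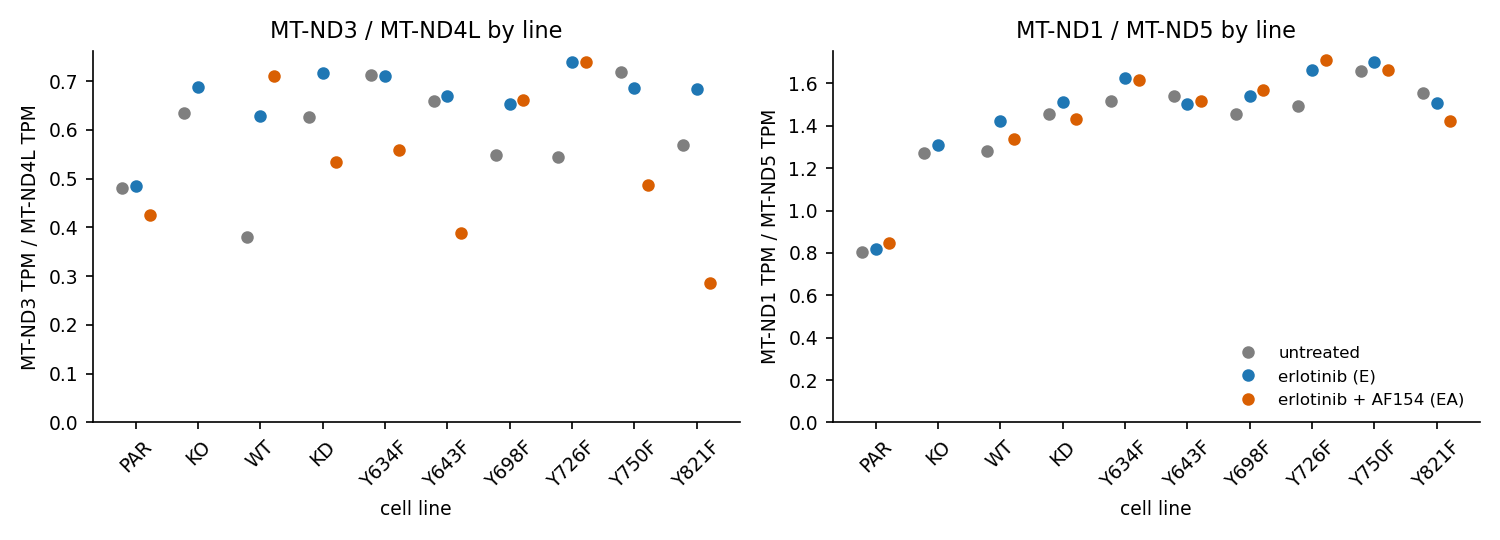
Ratio of MT-ND3 to MT-ND4L TPM (left) and of MT-ND1 to MT-ND5 TPM (right) in each cell line, with a point per library coloured by treatment. The left ratio is lowest in Y821F with EA (0.29), untreated WT (0.38) and Y643F with EA (0.39), and the right ratio lies at 0.81 to 0.85 in PAR and from 1.27 upward in all other lines.

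Y821F was close to the other lines untreated and with E, and stood apart with EA. Its MT share went from 12.9% with E to 17.4% with EA, and 12 of its 13 members were higher with EA, by a median of 0.45 on the log2 scale and by up to 0.81 for MT-ATP8. Y643F came next, with 12 members higher and a median of 0.28, and KD had 12 members higher and a median of 0.12. In Y698F 12 of 13 were lower, with a median of -0.04. With E against untreated, 10 of 13 members were lower in WT, with a median of -0.14, and 8 were lower in Y726F, with a median of -0.12, while 11 were higher in PAR, with a median of 0.23. The untreated WT library held the highest value of 5 members. Each of these is a difference between single libraries with no replicate.

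No level of the mitochondrial rRNAs can be given, but nuclear copies of MT-RNR2 had columns, 13 in all. The most abundant was MTRNR2L12 (ENSG00000269028, chr3:96617188-96618236, minus strand), followed by MTRNR2L1 (chr17:22523111-22524663) and MTRNR2L8 (chr11:10507887-10509189). A stretch of 60 bases shows how close they are to the mitochondrial gene, with capitals where a copy differs from MT-RNR2 (GENCODE 29 transcripts, bases counted from the start of each).

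MT-RNR2 (bases 801 to 860): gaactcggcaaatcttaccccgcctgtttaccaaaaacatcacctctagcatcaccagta

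MTRNR2L12 (bases 802 to 861): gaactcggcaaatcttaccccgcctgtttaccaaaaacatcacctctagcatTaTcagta

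MTRNR2L8 (bases 802 to 861): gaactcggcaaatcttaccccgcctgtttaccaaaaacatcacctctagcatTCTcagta

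MTRNR2L1 (bases 790 to 849): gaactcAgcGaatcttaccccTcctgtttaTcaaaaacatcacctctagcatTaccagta

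MTRNR2L12 differed from MT-RNR2 at 2 of these 60 bases, MTRNR2L8 at 3 and MTRNR2L1 at 5. Of the 1019 sequences of 31 bases in MTRNR2L12, 342 also lie in MT-RNR2, so a read from the mitochondrial 16S rRNA can match this column where MT-RNR2 has none. MTRNR2L8 shared 278 of 1273 such sequences and MTRNR2L1 93 of 1523. MTRNR2L12 ran from 1063 TPM in Y750F through a median of 1333 to 1806 in PAR untreated, and from 2827 in Y634F through 3072 to 5651 in PAR with E. The E and untreated ranges were separate, but the share of all genes tested with separate ranges was not counted. The MTRNR2L12 column rose by 1.25 ± 0.06 on the log2 scale, in 10 of 10 lines, where 36.4% of all genes tested rose past the threshold. MTRNR2L1 rose by 1.42 ± 0.05 and MTRNR2L8 by 1.46 ± 0.06, each in 10 of 10 lines. With EA against E, the changes were 0.04 ± 0.07 (adjusted p = 0.770), -0.10 ± 0.07 (adjusted p = 0.428) and -0.09 ± 0.09 (adjusted p = 0.594), all by the same limma fit. The log2 changes of the 3 columns with E were all above 1, where the largest change of an MT mRNA was 0.25. Whether their reads came from the copies or from MT-RNR2 was not tested.

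Of 417 nuclear copies with a column, 6 had a mean of at least 10 TPM, and 3 of these were the 16S copies above. Copies of the MT mRNAs summed to between 0.222% and 0.376% of the MT mRNA sum of a library. The highest of them were MTATP6P1 on chromosome 1, with a mean of 246 TPM and a change with E of -0.17 ± 0.08 (adjusted p = 0.0552), and MTND1P23 on chromosome 1, with a mean of 91.0 TPM and a change of -0.20 ± 0.06 (adjusted p = 0.00418). The estimate for MTATP6P1 lay below 0 as did that for MT-ATP6, while MTND1P23 fell where MT-ND1 rose. The sequence shared with nuclear transcripts of the table was uneven over the members, from 3.48% of the 31-base words of MT-ND3 and 4.95% of those of MT-CYB to 62.8% of MT-ATP6 and 66.7% of MT-CO1. How reads of shared sequence were divided is not known, so levels of members with much of it may be less certain, by an amount not tested.

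The nuclear genes that make and use these mRNAs mostly moved down with E. Of 20 tested genes for transcription and replication of mitochondrial DNA, 0 rose and 15 fell, with a median log2 change of -0.40, where 36.4% of all genes tested rose and 42.6% fell. TFAM, the main packaging and transcription factor, fell from 96.6 ± 9.16 to 41.4 ± 4.70 TPM, a log2 change of -1.21 ± 0.04, and POLRMT, the mitochondrial RNA polymerase, had a change of -0.55 ± 0.05, each lower in 10 of 10 lines. The largest fall of this list was in the nuclease and helicase DNA2, at -1.42 ± 0.10. Of 38 genes for mitochondrial RNA processing and stability, 2 rose and 28 fell (median -0.36), among them LRPPRC and SLIRP, which form a complex that stabilises MT mRNAs, at -0.52 ± 0.06 and -0.82 ± 0.07. PNPT1, a ribonuclease, and PUS1, a pseudouridine synthase, changed by -1.10 ± 0.06 and -1.04 ± 0.06, and the exonuclease REXO2 rose by 0.16 ± 0.03. MTPAP, the poly(A) polymerase that completes the stop codons shown above, was below the expression filter and not tested, at 11.8 ± 2.16 TPM untreated and 8.48 ± 1.55 TPM with E. Of 75 mitoribosome genes, 3 rose and 67 fell (median -0.47), and of 21 mitochondrial translation factors 2 rose and 13 fell (median -0.26). Among mitoribosome genes, MRPS25 and MRPL12 changed by -1.14 ± 0.06 and -1.10 ± 0.04, and MRPL10 rose by 0.32 ± 0.05. OXA1L, which inserts newly made MT proteins into the membrane, rose by 0.33 ± 0.04, and METAP1D and RBFA had changes of -0.67 ± 0.07 and -0.66 ± 0.09.

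Partner subunits encoded in the nucleus moved less far. Of 74 tested nuclear subunits of complexes I, III, IV and V, 13 rose and 46 fell, with a median of -0.19. Complex IV had 5 of 11 higher and 4 lower, near the shares of all genes, and a median of 0.01, with COX5B at 0.31 ± 0.05, COX4I1 at 0.14 ± 0.03, COX5A at -0.49 ± 0.03 and COX8A at -0.58 ± 0.05. In complex I 6 of 36 rose and 23 fell, with NDUFB4 at 0.33 ± 0.03, NDUFAB1 at -0.63 ± 0.03 and NDUFS3 at -0.45 ± 0.05. In complex III 1 of 9 rose and 5 fell, with UQCRB at 0.22 ± 0.03, CYC1 at -0.86 ± 0.04 and UQCRFS1 at -0.62 ± 0.04. In complex V 1 of 18 rose and 14 fell, and 3 genes for its rotor ring split, with ATP5MC2 at 0.20 ± 0.03, ATP5MC3 at -0.66 ± 0.04 and ATP5MC1 at -1.01 ± 0.06. Of the 4 subunits of complex II, which has no MT-encoded part, 3 fell, with SDHA at -0.35 ± 0.03 and SDHB at -0.65 ± 0.03. Of 12 regulators of mitochondrial biogenesis, 2 rose and 5 fell, the latter a share near that of all genes, with the deacetylases SIRT3 and SIRT1 at 0.56 ± 0.10 and 0.15 ± 0.05, and PPRC1 and MYC at -1.19 ± 0.05 and -1.14 ± 0.06. These lists stand beside the MT median of 0.05 and the median of -0.04 over all genes, as counts with no test of a list.

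With AF154 added to E, few of these nuclear genes passed, where 2.36% of all genes tested did. TFAM was higher in 8 of 8 lines, by 0.23 ± 0.04 on the log2 scale (adjusted p = 0.0236), and the mitoribosome gene MRPL42 by 0.30 ± 0.06 (adjusted p = 0.0332). Both calls depended on the lines used. Without PAR and Y821F, left out after the data were seen, 0% of all genes passed, so neither did. Without Y634F 0.11% of all genes passed. The other lists had 0 genes past the threshold, where the nuclear subunits of complexes I, III, IV and V had a median of -0.06 and the MT genes one of 0.12. With EA against untreated, 3 of the 74 nuclear subunits rose and 42 fell, while 5 of 13 MT genes rose and 0 fell, where 33.1% of all genes rose and 37.6% fell.

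**Figure D5:**
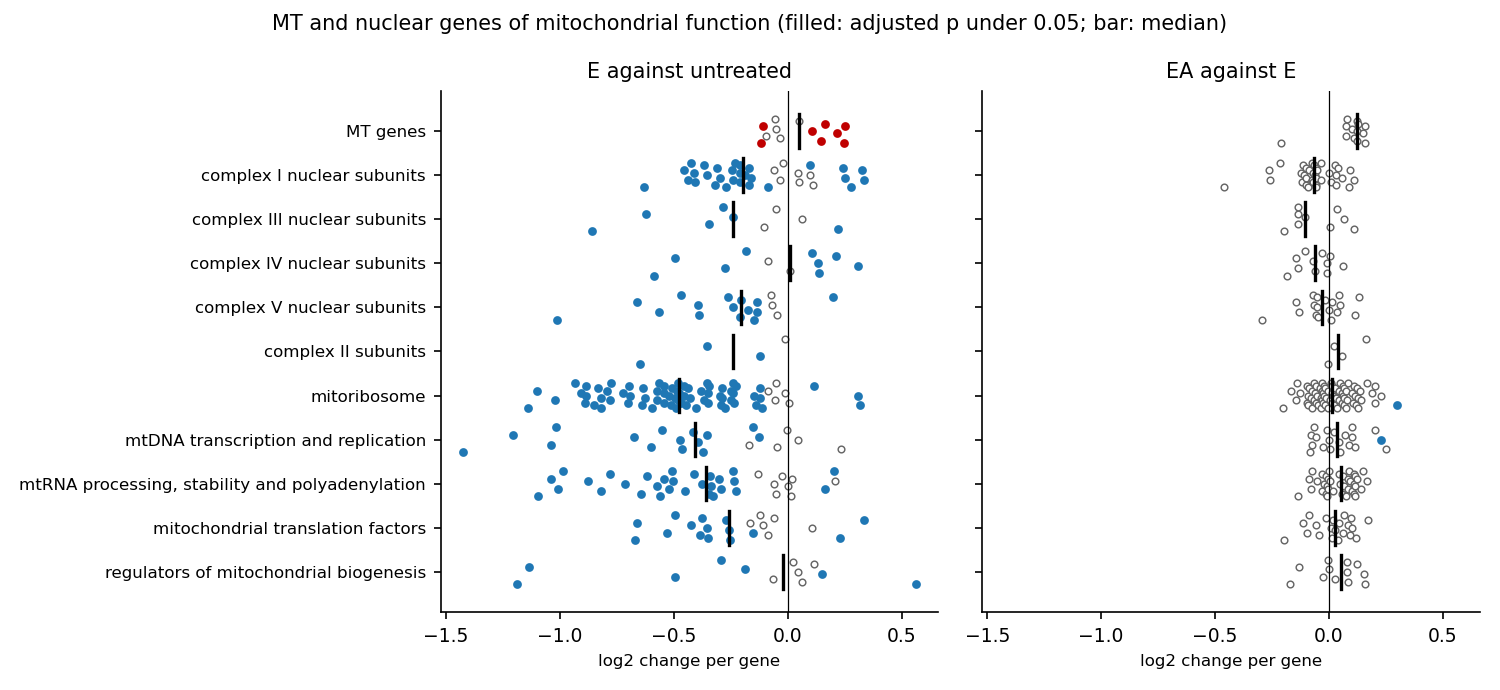
Log2 change per gene (horizontal axis, shared by the panels) of the MT genes and of 10 lists of nuclear genes, with E against untreated (left) and EA against E (right), filled where the adjusted p is under 0.05 and with a bar at each median. On the left the MT median is 0.05 and those of the mitoribosome and of mitochondrial DNA transcription and replication are -0.47 and -0.40, and on the right filled points are MRPL42 and TFAM.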

How the data were processed

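RNA of 29 libraries was analysed, 1 per line and treatment, mapped by the library names in the labels. The authors deposited TPM per transcript, and the submitters' processing notes name kallisto and GRCh38. The annotation, strand handling and depth are not given in the sources used here. GENCODE release 29 held the identifiers of 169797 of 188753 transcripts, whose TPM was summed per gene, 97.0% to 97.4% of each library. The other 18956 were left out. The table held 19948 of 19951 protein-coding genes and 0 snRNA or snoRNA genes, so the absence of tRNA and rRNA columns was not particular to mitochondria. It also held 0 of the 5 nuclear-retained RNAs and 0 of the 10 RNAs without a poly(A) tail that were listed.

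The 9085 genes averaging 10 TPM or more were tested on log2(TPM + 1), a scale that understates changes of low genes, with limma 3.58.1 in R 4.3.3 (lmFit, eBayes with trend), the line as a block since dishes of a line are the same cells, and Benjamini-Hochberg adjustment at 0.05. Sums and shares over members were not tested. Words of 31 bases were compared on either strand between MT genes and the transcripts of the table. On simulated data for EA against E over 9085 genes, 181 of 200 genes given a log2 change of 0.5 were called together with 11 unchanged ones, and 0 were called when nothing was changed. The simulated noise was drawn independently for each gene, so shifts of many genes in 1 library were not covered. Changes as small as those of the members with EA against E, from -0.21 to 0.16, were not simulated.

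The rule named all 13 MT mRNAs, the 5 nuclear copies of highest mean TPM, LRPPRC, SLIRP, POLRMT, TFAM, MTPAP and PNPT1, and per list the 2 largest rises and 2 largest falls past the threshold that moved alike in every line. Those of the lists with EA against untreated and of the markers are not listed, and 1 gene that the rule selects is not reported here. Members and lists were chosen with earlier results of these data known. Alternatives were other pseudocounts, filters, scalings, fits and denominators and leaving out each line. Python 3.11.15, numpy 2.4.6, pandas 2.3.3 and matplotlib 3.10.9 were used.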

Additional observations from a re-analysis of the deposited data

Results flagged for a closer look

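Among 70 sets of libraries of 1 treatment, 12 held a library whose gap to its nearest neighbour was large for the range of the set (Dixon's 95% limit), a limit that chance passes in about 1 in 20 sets. The parental line accounted for 11 of the 12, and 9 were its library with E alone, read through mRNAs of 1 genome and their sum, so the sets are not independent and their number is not set against chance.

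In PAR with E, the MT share was 17.4% of TPM against 12.3% to 14.2% in the other lines. MT-CO1 stood at 17782 TPM there (others 14107 to 14807), MT-CO2 at 27640 (others 17475 to 19142), MT-CO3 at 12207 (others 7935 to 9740), MT-ATP6 at 8445 (others 5791 to 6924), MT-ND4L at 43807 (others 26828 to 34022), MT-ND4 at 11954 (others 7682 to 8861), MT-ND5 at 4468 (others 2550 to 3029) and MT-ND6 at 8156 TPM (others 4008 to 5206). In PAR with EA, MT-CO3 stood at 12333 TPM (others 9032 to 10496) and MT-ND6 at 7862 TPM (others 4152 to 5626). In Y821F with EA, MT-ND4L stood at 47611 TPM against 29278 to 37534 TPM in the other lines. MTRNR2L12, the nuclear copy of MT-RNR2, was also highest in PAR with E (5651 TPM) and in Y821F with EA (4486 TPM) among the libraries of their treatments. What set these libraries apart was not tested.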

How the results depend on the processing

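The number of MT genes past the threshold with E against untreated was 8, and 5 (4 higher, 1 lower) with no replicate block and 5 with all libraries in 1 fit, where MT-ND5, MT-ND3 and MT-ATP8 missed it. Leaving out each line gave 7 to 9 there, 0 with EA against E and 4 to 7 with EA against untreated. Other filters, pseudocounts and scalings left these counts within 1.5 times. MT-ND6, MT-CO2, MT-CO1 and MT-ND1 passed in all 21 alternatives with E and all 20 with EA against untreated, with adjusted p up to 0.0419. Leaving out a line moved the mean difference in MT share between 0.35 and 0.82 percentage points for E minus untreated, 0.32 and 1.11 for EA minus E, and 0.997 and 1.76 for EA minus untreated, and other denominators moved it by less than the spread between lines. Without both PAR and Y821F, an alternative chosen after seeing the data, 8, 0 and 4 members passed, and 0% of all genes did with EA against E.

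Of 793 gene values under alternatives, 12 changed sign, all of genes that did not pass. They were MT-CYB with E (0.013 with medians centred), MT-ATP8 with EA against E without Y821F (range over lines left out -0.0012 to 0.16), and with EA against untreated MT-ND3 (0.028 without PAR and Y821F, range over lines left out -0.15 to 0.0059), MT-ATP6 (-0.069 without PAR and Y821F, range -0.031 to 0.063), MT-CO3 (-0.0046 without PAR and Y821F) and MT-ATP8 (0.0008 in 1 fit, range -0.14 to 0.0065). The cause was not tested. Depth is unknown, which limits what can be said of small changes.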
